A study of Mus musculus with 768 samples.

Results

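Natural killer (NK) cells were sorted from tumors of MTAP1A, a fibrosarcoma cell line derived from Tap1-deficient mice, and the genes of the cytosolic ribosomal proteins were followed in each cell. Members were the entries with symbols of the Rpl and Rps series, plus Rpsa, Rplp0, Rplp1 and Rplp2. Symbols of pseudogenes (-ps) and of the Rps6k kinases were left out. This gave 85 of 24490 gene entries under 84 symbols, because Rpl30 stood on 2 entries, with 52 entries of the large and 33 of the small subunit. The rule reads the symbols only.

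The series comprised 768 wells on 2 plates. Tumors of 3 WT mice were pooled for one plate and tumors of 3 PD-1-/- mice for the other, and all recipients were young adult males matched for age. The PD-1-/- mice carry a deletion of some exons of Pdcd1 and are deficient throughout the animal. Cells were gated as NK1.1-positive and negative for CD3 and other lineage markers, and libraries were made by SMART-SEQ2, which reads full-length transcripts and adds no molecular identifiers. Each genotype was 1 pooled sample on 1 plate. Genotype and plate therefore cannot be told apart, no test between genotypes was made, and cells of a pool are not replicates.

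The cytosolic ribosome makes all proteins encoded in the nucleus, and it is built from a small subunit that reads the messenger RNA and a large subunit that joins amino acids. Most ribosomal proteins are present in equal number in the particle, which is one of the largest investments of a growing cell. Their messenger RNAs typically begin with a run of pyrimidines, the TOP tract, through which growth signals act on translation of the whole set together. In lymphocytes, resting cells hold few ribosomes, and activation and growth raise their number.

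The deposited values were RPKM, a read number divided by gene length and by the depth of the well, so that levels can be compared between genes per length. Wells with 1000 to 3500 detected genes were kept, a gene being detected at an RPKM above 0. This left 726 cells, of which 360 were WT and the rest PD-1-/-, with a median of 2264.5 and 2262.5 detected genes. Whole reads recovered from the equal steps in the values had a median of 331920 in WT and 349689 in PD-1-/- cells. Fewer than 100000 reads were recovered from 23 WT and 14 PD-1-/- wells among those kept, and the lowest number was 1353. Of the 8 NK-like markers, each was found in 61.9% or more of WT cells and 55.2% or more of PD-1-/- cells. The myeloid-like, neutrophil-like, B-like and fibrosarcoma-like markers were each found in at most 6.39% of cells of either genotype, and the T-like markers in at most 16.9%. Any CD3 chain transcript was found in 65 WT and 83 PD-1-/- cells.

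The TOP tract is shown first, since it is the sequence feature by which these genes are known as one set. RefSeq promoter windows on GRCm38.p6 were at hand for 63 of the 84 symbols, in 75 windows, each of 300 bases from 250 before the annotated start to 50 from it on. A tract was defined as C at the annotated start followed by at least 4 bases that were C or T. It was found in 13 of the 75 windows (17.3%), against 2.51% of all 32851 promoter windows. When the tract could begin up to 5 bases to either side of the annotated start, the shares were 41.3% and 18.3%. The stretches below are 30 bases, 18 before the annotated start and 12 from it on, 5′ to 3′ on the strand of the gene, with the tract in capitals. Rplp2, Rps18, Rpl35 and Rps6 carry a tract at the start and belong to members of the large and small subunits at high and low level, and Rps3 and Rpl4 are among the most abundant members and have no tract at the annotated start.
Rplp2 (chr7:141447633-141447662, plus strand): cactgcgtcagcgtcttcCTTTCgccgccg
Rps18 (chr17:33955654-33955683, minus strand): ttatacgtcacttccgctCTCTCTTCCaca
Rpl35 (chr2:39005120-39005149, minus strand): agtcggccccgccctttcCTCTTTCTCTCg
Rps6 (chr4:86857356-86857385, minus strand): gttaagcggaagtcgggcCTCTTTTTCgtg
Rps3 (chr7:99483698-99483727, minus strand): acacttgcaagggtcgccgcgctgcgcggc
Rpl4 (chr9:64173369-64173398, plus strand): tctttccttttcctgtgggagcagccgggt
Rpl4 has a run of pyrimidines that lies just before the annotated start. Entries with a tract at the start had a median level of 159.96 RPKM (13 entries), and those without had 70.1 RPKM (50 entries). The ranges overlapped, from 1.67 to 563 RPKM with a tract and from 0.0540 to 2192 RPKM without. The motif CGGAAG on either strand, a core bound by ETS factors that was looked for after other motifs had been seen, was searched over the whole 300 bases of each window, beyond the stretches printed here. It was in 45 of the 75 member windows and in 16.9% of all windows. A match to these letters is a description of the window and not a site of action.

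Ribosomal protein transcripts made up a median of 5.15% of the total RPKM of a WT cell and 4.55% of that of a PD-1-/- cell. The lowest WT cell had 1.85%, the highest 12.4%, and the interquartile range was 4.11% to 6.58%. In PD-1-/- cells, the lowest was 0.992%, the highest 10.8%, and the interquartile range was 3.37% to 5.52%. The cells of both genotypes overlapped over nearly the whole range. The coefficient of variation over cells was 33.2% in WT and 37.02% in PD-1-/- cells.

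The median share of PD-1-/- cells was 0.596 percentage points below that of WT cells. With rows of the same letter set side by side on the plates, the PD-1-/- median was lower in 13 of 16 rows and higher in 3. Row medians ran from 4.23% (row F) to 6.14% (row D) in WT and from 3.61% (row D) to 5.07% (row G) in PD-1-/- cells. Row G had the lowest median of recovered reads on both plates, 105678 in WT and 142710 in PD-1-/- cells. The difference between same-letter rows had an SD of 0.835 points over the 16 rows, each of which held 17 to 24 kept cells, which is larger than the difference in medians. It was -0.498 points in rows A–H and -0.724 points in rows I–P. By plate column, it was -0.350 points in columns 1 to 12 and -0.869 points in columns 13 to 24.

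**Figure D1:**
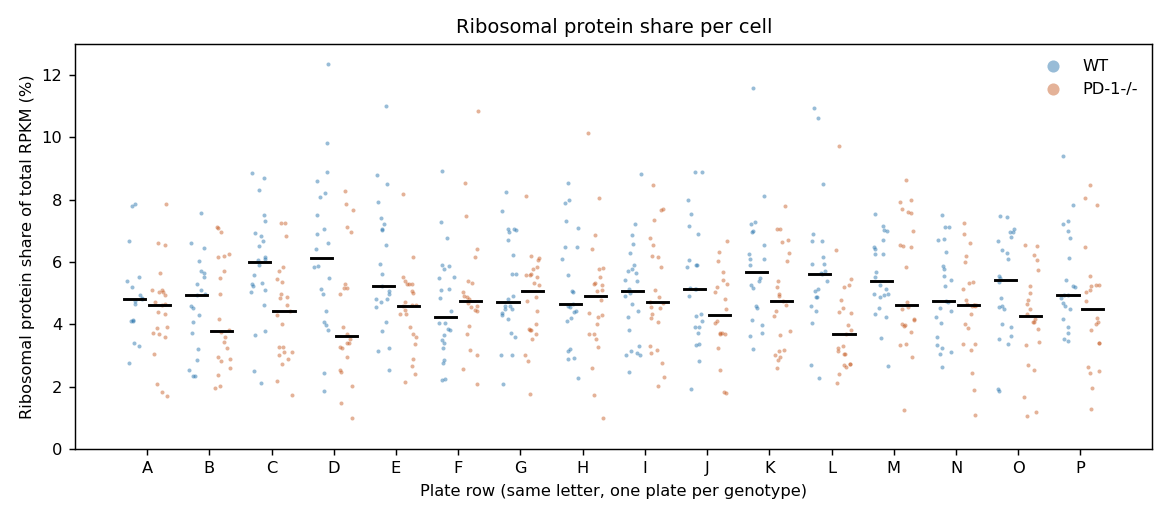
Share of total RPKM from ribosomal protein entries (%, vertical axis) in each kept cell, by plate row (horizontal axis), with WT cells in blue and PD-1-/- cells in orange. Each point is a cell and each black bar the median of a row. The PD-1-/- bar is lower in 13 of 16 rows, and the points overlap in every row.

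Both subunits contributed about equally. The large subunit had a median share of 2.52% in WT and 2.21% in PD-1-/- cells, and the small subunit 2.68% and 2.30%. Over cells, the shares of the subunits rose and fell together, with a Spearman correlation of 0.90 over the WT cells and 0.91 over the PD-1-/- cells. Both shares have the same cell and the same total RPKM as denominator.

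The levels of single members spanned over 4 orders of magnitude. Mean RPKM over all kept cells was 1000 or more for 11 entries, 100 to 1000 for 29, 10 to 100 for 27 and below 10 for 18. The 11 highest gave 67.3% of the summed member RPKM, and the 18 lowest gave 0.269%.

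Rpl8, which lies near the catalytic centre of the large subunit, was among the highest and gave 7.95% of the summed member RPKM. In WT cells its median was 2237 RPKM and its highest value 7908 RPKM, and in PD-1-/- cells the median was 1951 RPKM and the highest value 5930 RPKM. Rpl4, which lines the exit tunnel, had medians of 2232 and 1922 RPKM. Rps3, which sits at the messenger RNA entry and also has roles in DNA repair, had medians of 1676 and 1526 RPKM. Rps14, a protein of the small subunit platform, had medians of 1634 and 1395 RPKM. In each of these 4 entries the median was lower in PD-1-/- cells and the cells of the genotypes overlapped.

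The acidic stalk recruits translation factors to the large subunit. Rplp0, its base, had a median of 1051 RPKM in WT cells and 868 RPKM in PD-1-/- cells. Its partners Rplp1 and Rplp2 are present in more than one copy per particle, and their medians were 1683 and 566 RPKM in WT and 1358 and 509 RPKM in PD-1-/- cells. Rpsa, which holds a place on the small subunit and is also known as a laminin receptor, was far lower, with medians of 33.6 and 30.1 RPKM, although it was detected in 95.8% of WT cells and 97.3% of PD-1-/- cells.

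**Figure D2:**
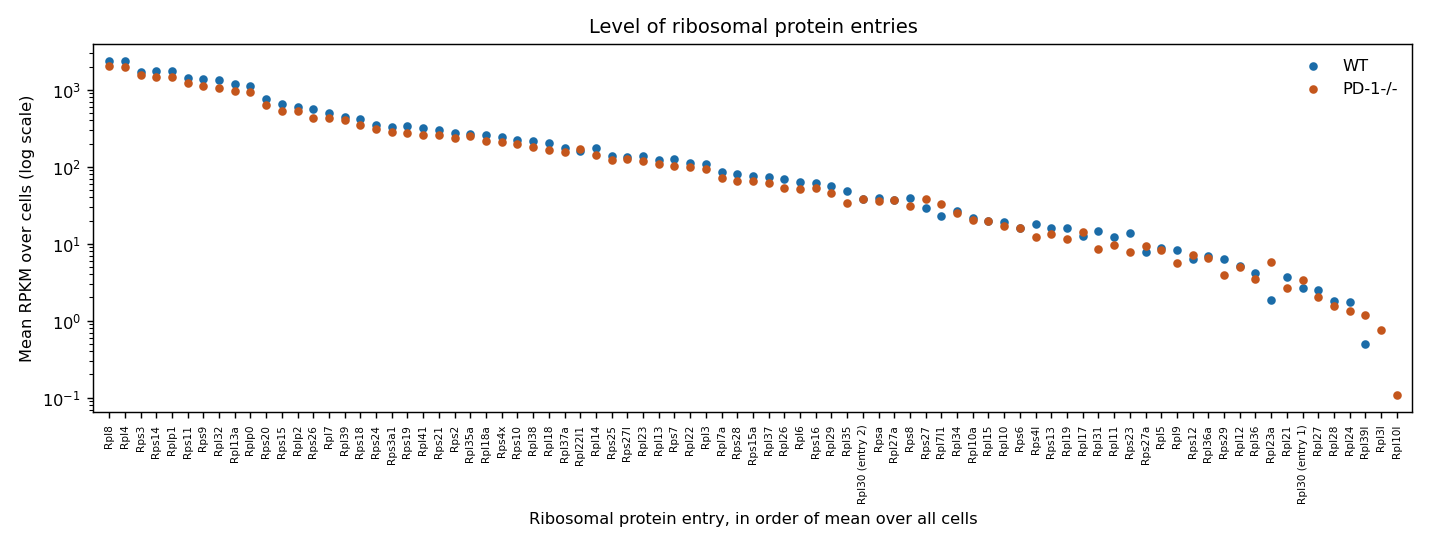
Mean RPKM over kept cells (vertical axis, log scale) of each plotted ribosomal protein entry (horizontal axis, in order of the mean over all cells), WT in blue and PD-1-/- in orange. Entries with a mean of 0 have no point, as for Rpl3l and Rpl10l in WT. Members not reported singly are left out. Levels fall from above 1000 RPKM to below 1 RPKM.

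Several proteins that every ribosome holds were at low level or found in a minority of cells. Of the 18 entries below 10 RPKM, 3 were the restricted paralogs Rpl3l, Rpl10l and Rpl39l, and 15 were not. Rps27a, which is made fused to ubiquitin, was found in 33.1% of WT cells (95% interval 28.2 to 38.2%) and 24.3% of PD-1-/- cells (20.01 to 29.05%). Rps6, the target of the S6 kinases, was detected in 49.4% of WT cells and 47.5% of PD-1-/- cells, at means of 16.1 and 15.9 RPKM. Among the lowest entries detected in 20% or more of the cells in either genotype were Rpl21, Rps29, Rpl36a and Rpl9, with means over all cells of 3.18, 5.10, 6.72 and 6.98 RPKM. Rpl5 and Rpl11, which bind MDM2 when ribosome assembly fails, had mean levels of 8.67 and 12.2 RPKM in WT and 8.39 and 9.66 RPKM in PD-1-/- cells. Both were found in a majority of cells, Rpl5 in 70% of WT cells and 74.9% of PD-1-/- cells and Rpl11 in 58.3% and 52.2%.

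Reads of ribosomal protein genes are hard to place because the genome holds many processed copies of them. For 83 of the 84 symbols, the principal GENCODE transcript was divided into all windows of 40 bases, and a window was counted as shared when another gene held it too. The median shared part was 44.4% for entries at 1000 RPKM or more, 57.7% at 100 to 1000, 75.6% at 10 to 100 and 76.5% below 10. The median number of pseudogenes that shared windows was 4, 9, 13 and 13 in the same order. Rps3 shared 4.98% of its windows and Rpl8 shared 8.99%, while Rpl35 shared 97.4% and Rps27 shared 98.7%. Over 81 entries, leaving out Rpl3l, Rpl10l and Rpl39l, the Spearman correlation of mean RPKM with the shared part was -0.49, and -0.59 with windows of 75 bases. How the authors treated reads with several matching places is not given in the sources used here, and the part of such reads in the low levels was not tested. The level of a member with a large shared part is therefore uncertain, and its order among the members says little about the amount of its messenger RNA.

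Paralogs were read against their partners. Rpl3l, a form of muscle, was listed at 0 in all 360 WT cells, which allows a share of up to 0.833%, and was found in 0.546% of PD-1-/- cells, whereas Rpl3 was found in 96.7% and 95.6%. Rpl10l, a testis form, was at 0 in all WT cells and found in 0.273% of PD-1-/- cells, whereas Rpl10 was found in 49.7% and 42.6%. Rpl39l was found in 0.278% and 0.820%, against 98.3% and 99.2% for Rpl39. The intervals and limits here cover counting error only. Rps4l was found in 8.89% and 6.28%, against 98.3% and 97.5% for Rps4x.

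Of the other paralogs, Rpl22l1 and Rps27l had means above those of their partners and Rpl7l1 had a mean below that of Rpl7. Rpl22l1 had a mean of 157.96 RPKM in WT and 168.01 RPKM in PD-1-/- cells, against 110.7 and 98.4 RPKM for Rpl22. It was found in 87.2% and 83.3% of cells, fewer than the 95.3% and 94.8% with Rpl22. Rps27l, a target of p53, had means of 134.6 and 125.07 RPKM, against 28.8 and 38.2 RPKM for Rps27, whose windows were nearly all shared. Rpl7l1, which acts in ribosome assembly, had means of 22.7 and 33.04 RPKM, against 505 and 426 RPKM for Rpl7.

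Detection was close in the genotypes. In each genotype, 46 of the 85 entries were found in at least 90% of cells, and these were the same 46 entries. Over all 24490 entries, this share was 0.772% in WT and 0.735% in PD-1-/- cells. The largest difference in detection of a member was 8.74 percentage points, for Rps27a.

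Nearly all members had a lower mean in PD-1-/- cells, by a small amount. The log2 ratio of mean RPKM, PD-1-/- over WT, was taken with a pseudocount of 1 for entries that reached a mean of 10 RPKM and detection in 20% or more of the cells of WT or PD-1-/- mice, which were 3999 entries, 63 of them members. Below 0 were 60 of the 63 members, against 50.3% of the 3936 other entries. Rps23, Rpl31 and Rpl11 are among these 60 and reached the mean of 10 RPKM in WT cells only. The median was -0.24 over the members and -0.0016 over the other entries, and the interquartile range of the members was -0.29 to -0.17. The other 22 members did not pass the filter and are not counted here. In means over cells of this kind, fewer cells with a transcript and less of it per cell cannot be told apart.

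Entries found in most cells were lower in PD-1-/- cells in general, so the members were also set against other entries past a floor of detection. Of the other entries detected in 80% or more of the cells in both genotypes, 66.4% were below 0, with a median of -0.06. Of the 49 members past the same floor, 48 were below 0, with a median of -0.24. The ratios were also taken apart for rows A–H and rows I–P. Below 0 in both parts of the plates were 43 of these 49 members, against 44.1% of the other entries past the floor. Among all 63 members with a ratio, 47 were below 0 in both parts, against 27.5% of the other entries.

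**Figure D3:**
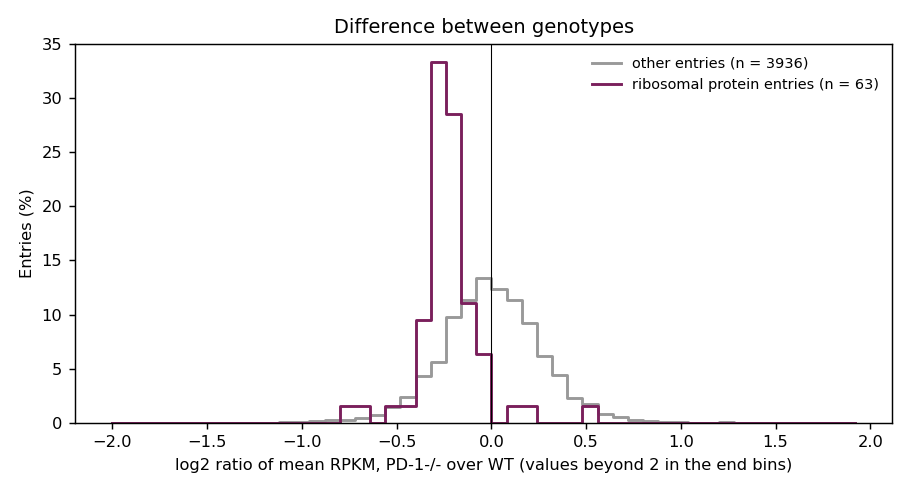
Share of entries (%, vertical axis) by log2 ratio of mean RPKM, PD-1-/- over WT (horizontal axis, values beyond 2 in the end bins), for 63 ribosomal protein entries (purple) and 3936 other entries (grey). The ribosomal protein entries lie in a narrow peak with a median of -0.24, inside the range of the other entries.

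Few members differed by a large factor. At least 1.5-fold lower in PD-1-/- cells were 2 of 63 members, against 1.78% of the other entries, and at least 1.5-fold higher were 0 members, against 1.80% of the other entries. Both members past this factor are proteins at low level and reached the mean of 10 RPKM in WT cells only. Rps23 had means of 13.8 RPKM in WT and 7.78 RPKM in PD-1-/- cells, and Rpl31 had 14.6 and 8.57 RPKM. Each passed the filter through the genotype in which it is higher, so these 2 are not read as a difference. Rps23, of the decoding centre, had a log2 ratio of -0.76, and Rpl31, near the exit of the tunnel, had one of -0.71. In WT cells, Rps23 was found in 42.2% of cells, its median was 0 and its highest value was 1192 RPKM. By part of the plate, the ratios of Rps23 were -1.21 in rows A–H and -0.15 in rows I–P, and those of Rpl31 were -1.46 and 0.09. With only the cells of at least 100000 recovered reads, 0 members were past the factor. The next in order were Rpl35, at -0.52, Rpl19, at -0.45, and Rps26, at -0.38. In rows A–H and rows I–P, Rpl35 had -0.53 and -0.50, Rpl19 had -0.67 and -0.20, and Rps26 had -0.37 and -0.38. Rps26, at the messenger RNA exit, had medians of 501 RPKM in WT and 381.3 RPKM in PD-1-/- cells.

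At the other end was Rpl7l1, with a log2 ratio of 0.52 and values of 0.61 and 0.42 in the parts of the plates. Rpl17 had a ratio of 0.17 and Rpl22l1 one of 0.09, and both were above 0 in both parts. No other member with a ratio was above 0. The next were Rpl27a and Rpl15, at -0.01 each, and their values in the parts had opposite signs. Of the 3 members above 0, Rpl7l1 and Rpl22l1 are paralogs. Rps27l, the other paralog with a ratio, was at -0.11, with 0.09 in rows A–H and -0.27 in rows I–P.

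Members at high level had ratios below 0 that differed in size. Among entries at 1000 RPKM or more, the log2 ratio ran from -0.10 for Rps3 to -0.36 for Rpl32. It was -0.20 for Rpl8, -0.25 for Rpl4, -0.24 for Rps14 and -0.32 for both Rps9 and Rpl13a. It was -0.28 for Rplp0, -0.27 for Rplp1 and -0.20 for Rplp2. For Rps19, the protein most often affected in Diamond-Blackfan anemia, it was -0.29, with -0.28 and -0.30 in the parts of the plates. All of these were below 0 in both parts, with Rps3 at -0.01 in rows A–H and -0.18 in rows I–P. The 36 large subunit members had a median of -0.24, with 33 below 0, and the 27 small subunit members had a median of -0.23, with all 27 below 0. Over 63 members, the Spearman correlation of the ratio with the shared part of the transcript was -0.05.

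Relatives outside the naming rule had ratios in the same range. Gnb2l1, the deposited symbol of the scaffold protein RACK1 of the small subunit, had a mean of 1881 RPKM in WT and 1572 RPKM in PD-1-/- cells, a log2 ratio of -0.26. Fau, which encodes a ribosomal protein fused to a ubiquitin-like protein, had a ratio of -0.37, and Rpl36al had one of -0.27. For comparison, the 14 translation factors had a median ratio of -0.11, with 12 below 0, and the 47 mitochondrial ribosomal proteins with a ratio had a median of -0.09, with 33 below 0. Of 13 ribosome biogenesis genes with a ratio, 8 were below 0, with a median of -0.05.

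The members varied together from cell to cell. Among 55 members detected in at least 50% of the cells of both genotypes, the median Spearman correlation over 1485 pairs was 0.38 over the 360 WT cells and 0.41 over the PD-1-/- cells. Of the pairs, 99.3% and 99.5% were above 0. The same measure over pairs of 930 other entries past the same limit had a median of 0.02 in both genotypes, and between members and those entries it was 0.04 in WT and 0.05 in PD-1-/- cells. Members were detected more often than these entries, so the measure was also taken at a limit of 90%, a comparison added after seeing the data. The medians over pairs of the 46 members were then 0.42 in WT and 0.46 in PD-1-/- cells, and over pairs of other entries past that limit both were 0.03. All pairs share the cells, their depth and the total to which RPKM is scaled. When member values were divided by the total of all other entries, the medians were 0.38 and 0.41.

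**Figure D4:**
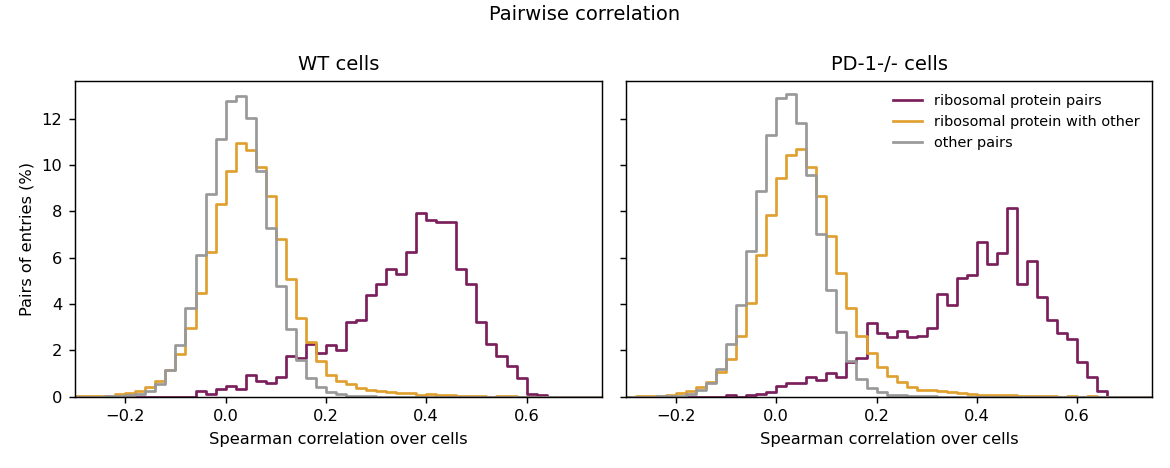
Distribution of pairwise Spearman correlations over cells (horizontal axis) as a percentage of pairs (vertical axis), in WT cells (left) and PD-1-/- cells (right), for pairs of ribosomal protein entries (purple), pairs of a ribosomal protein entry and another entry (yellow) and pairs of other entries (grey). Pairs of ribosomal protein entries have a median of 0.38 and 0.41, and pairs of other entries have a median of 0.02 in both.

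The members differed in how closely they followed the rest. By the mean of both genotypes, Rpl32, Rplp1 and Rpl13 had the highest median correlation with the other members, with 0.49, 0.46 and 0.46 in WT and 0.53, 0.52 and 0.51 in PD-1-/- cells. Among the closest single pairs, Rplp0 with Rps18 reached 0.64 in WT and 0.59 in PD-1-/- cells, and Rps26 with Rps18 reached 0.58 and 0.65. The lowest was Rps27l, with a median of 0.05 in both genotypes, although it was detected in 63.9% and 62.3% of cells at a mean above 100 RPKM. Rps13 had 0.16 and 0.19, and Rpl11 had 0.15 and 0.23, and both were below 20 RPKM. Rpl22l1 had 0.26 in both genotypes. With members detected in at least 20% of cells in place of 50%, the medians over pairs were 0.28 and 0.29. Rps27l was at 130 RPKM over all cells, near Rpl23 at 129.2 RPKM, which was found in 97.5% of WT cells.

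Cells in which more genes were detected had a higher share. The Spearman correlation of the share with detected genes was 0.38 in WT and 0.40 in PD-1-/- cells. With recovered reads it was 0.04 in both. The share rose over the ranges of detected genes in both genotypes. In cells with 1000 to under 2000 detected genes, the median was 4.49% in WT and 3.84% in PD-1-/- cells. In cells with 2000 to under 2500 it was 5.21% and 4.29%, and in cells with 2500 to 3500 it was 6.08% and 5.30%. The median of PD-1-/- cells was below that of WT cells in each range.

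Of the other gene lists, translation factors followed the share most closely. The score of a list was the mean of log2(RPKM + 1) of its genes in a cell. Single genes and entries, here and in the lists that follow, were ranked by the mean of their correlations in WT and PD-1-/- cells, and the order within one genotype can differ. Translation factors had a Spearman correlation with the share of 0.64 in both genotypes. Eef1a1, which brings aminoacyl-tRNA to the ribosome and itself has a TOP messenger RNA, had 0.79 in WT and 0.81 in PD-1-/- cells, the highest of 3927 entries outside the members found in at least 20% of cells. The lowest of the list by this mean was Eif4a2, with 0.16 and 0.07. After Eef1a1, the highest entries were Gm6548, Gm13826, Gnb2l1 and Rn45s, with 0.66, 0.57, 0.54 and 0.51 in WT and 0.67, 0.60, 0.62 and 0.59 in PD-1-/- cells. Rn45s is the precursor of ribosomal RNA. The median over the 3927 entries was 0.05 in WT and 0.06 in PD-1-/- cells.

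Lists of growth and ribosome assembly stood below the translation factors. Ribosome biogenesis genes had 0.36 in WT and 0.42 in PD-1-/- cells, led by Npm1, a nucleolar chaperone, with 0.37 and 0.47, and Polr1b was lowest by the mean of both genotypes, with 0.09 and 0.04. Growth and metabolism genes had 0.40 and 0.43, with Hspe1 highest, at 0.42 and 0.34, and Slc7a5 lowest by this mean, at 0.05 and 0.02. Mitochondrial ribosomal proteins had 0.44 and 0.40, glycolysis genes 0.42 and 0.36 and heat shock genes 0.24 and 0.25. Gapdh led the glycolysis genes with 0.36 and 0.33, and Hspa8, a constitutive chaperone, led the heat shock genes with 0.41 and 0.38. Hk2 was lowest of the glycolysis genes by this mean, with 0.08 and 0.05, and Dnajb1 of the heat shock genes with -0.02 and 0.09. Of the mitochondrial ribosomal proteins, Mrps34 was highest by this mean, with 0.21 and 0.23, and Mrpl1 lowest, with -0.03 and -0.07. Scores of several of these lists also rose with detected genes, most of all the mitochondrial ribosomal proteins, at 0.80 and 0.82. Within cells of 2000 to under 2500 detected genes, translation factors had 0.54 in WT and 0.44 in PD-1-/- cells, ribosome biogenesis genes 0.31 in both, and mitochondrial ribosomal proteins 0.37 in WT and 0.05 in PD-1-/- cells.

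**Figure D5:**
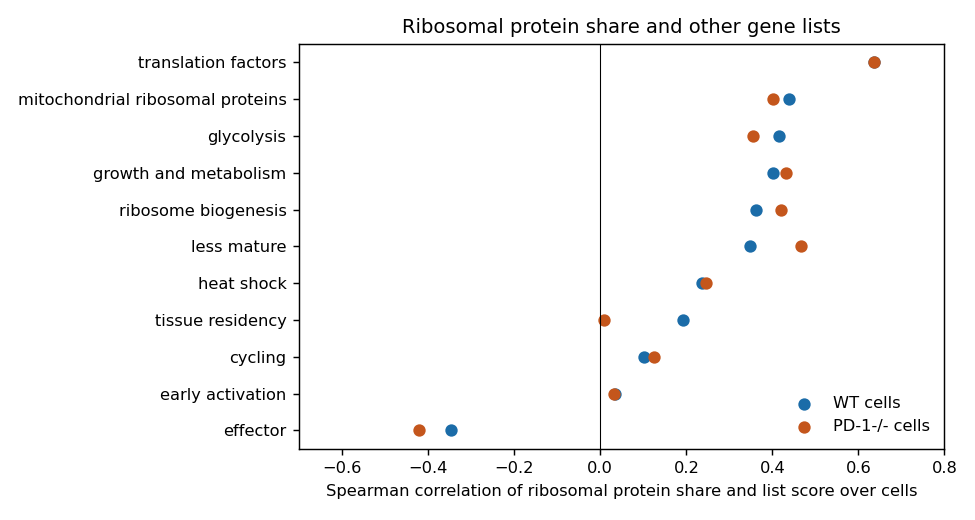
Spearman correlation over cells of the ribosomal protein share with the score of each of 11 gene lists (horizontal axis), WT cells in blue and PD-1-/- cells in orange. Translation factors are highest at 0.64 in both, and effector genes are lowest at -0.35 and -0.42.

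Effector genes went the other way. Their score had a correlation with the share of -0.35 in WT and -0.42 in PD-1-/- cells, and of -0.31 and -0.44 within cells of 2000 to under 2500 detected genes. Ccl5, a chemokine of mature NK cells, had -0.37 and -0.53, the lowest of the 3927 entries by the mean of both genotypes. Next were Ly6c2, with -0.19 and -0.44, and Gzma, a granule protease, with -0.28 and -0.33. Of the effector list, Ifng was nearest to 0 by this mean, at -0.05 and -0.08. The levels of these genes are scaled to the depth of the cell, and the share is divided by its total RPKM, which includes these genes.

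Genes of less mature NK cells had positive values, 0.35 in WT and 0.47 in PD-1-/- cells. The score of this list also rose with detected genes, with correlations of 0.36 and 0.42. The correlation of this score with the share within a narrower range of detected genes is not given here. The part of detected genes in the positive values therefore cannot be read from the values printed for this list. Emb, a partner of monocarboxylate transporters, was highest of this list with 0.29 and 0.44, and Cd7 was lowest with -0.01 in both. Cells with Emb had a median share of 5.63% in WT, where 64.7% of the cells had it, against 4.42% without. In PD-1-/- cells, of which 53.8% had it, the median was 5.10% with Emb and 3.70% without. Median detected genes were 2336 and 2159 in WT and 2396 and 2095 in PD-1-/- cells with and without Emb. The next genes were chosen after their values were seen. With Tcf7, a factor of early NK cells, the median was 5.60% in WT and 5.19% in PD-1-/- cells, against 4.74% and 4.003% without. Median detected genes with and without Tcf7 were 2285 and 2224 in WT and 2376.5 and 2163.5 in PD-1-/- cells. With Cma1, a protease best known from mast cells, the median share was 3.598% in 37 WT and 2.87% in 33 PD-1-/- cells, against 5.35% and 4.63% without. Cells with Cma1 had fewer detected genes, with medians of 1926 and 1969, and the part of this in the lower share was not tested.

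Lists of cycling, early activation and tissue residency were close to 0 or weakly positive. Cycling genes had 0.10 in WT and 0.13 in PD-1-/- cells, with, by the mean of both genotypes, Mcm6 highest at 0.15 and 0.12 and Birc5 lowest at -0.07 in both. Early activation genes had 0.03 in both, with Jun at 0.12 and 0.16 and Ccl4, a chemokine, at -0.20 and -0.28. Tissue residency genes had 0.19 and 0.01, with Cd160 at 0.09 and 0.11 and Cxcr6 at -0.04 and -0.16. The median share of cells with Cxcr6 was 4.96% in 28 WT cells and 4.06% in 77 PD-1-/- cells, against 5.19% and 4.67% in cells without it. These medians were lower in PD-1-/- cells in both comparisons, but the interquartile ranges of the genotypes overlapped. With Cxcr6 they were 3.85% to 6.24% in WT and 3.13% to 4.76% in PD-1-/- cells. Without it they were 4.15% to 6.61% and 3.52% to 5.83%. The part of Cxcr6 in the lower share was not tested. Cells with CD3 transcripts had median shares of 5.39% in WT and 4.62% in PD-1-/- cells, against 5.14% and 4.52% in the other cells.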

How the data were processed

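The authors deposited RPKM per gene entry and well. The submitters' processing notes name TopHat, Cufflinks, mm9 and mm10, without versions or roles, and counting rules and annotation are not given in the sources used here. From these RPKM values, shares, means, log2 ratios and correlations over cells were computed in Python 3.11.15 (scipy 1.17.1, pandas 2.3.3 and numpy 2.4.6). Genes above 0 in at least 3 wells were counted as detected genes, wells with 1000 to 3500 were kept, and this removed 24 WT and 18 PD-1-/- wells. Per the labels, 382 wells of each plate held a cell. Each entry was kept apart.

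Whole reads were recovered for 10080 entries, 77 of them members, and 99.2% of 699227 low values were whole within 0.0003 of the read number. Reads were used for depth, for thinning and for an alternative share of recovered reads. Their totals set how many transcripts a cell can show. Detection carries exact binomial 95% intervals, and a count of 0 allows 3 cells. Scripts were tested on simulated data.

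The members and gene lists were chosen with earlier results of these data known. Genes were named by rule: the highest and lowest members, the largest changes, the ends of the correlation with other members, functional and paralog groups, and for each list the gene with the highest and with the lowest correlation by the mean of both genotypes. No test was made, since each genotype is 1 pool. Transcripts for shared windows were those of GENCODE vM21 (principal, shortest), and promoter windows those of RefSeq on GRCm38.p6. Alternatives changed the cells, members, denominator, pseudocount, scaling, filters and correlation. A limit of 100000 recovered reads, a range of detected genes, a detection limit of 90% for pairs, shared windows and the CGGAAG motif were added after seeing the data. No caller of doublets was run. Some items withheld for evaluation are not reported here singly, and counts and shares over the members include them.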

Additional observations from a re-analysis of the deposited data

Results flagged for a closer look

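Values outside the members were looked at where ribosomal protein sequence was still measured. Rpl14-ps1, a pseudogene entry left out of the members, had a mean of 369.03 RPKM over kept cells, above the 159.96 RPKM of Rpl14 itself, and was detected in 97.8% of WT cells and 98.4% of PD-1-/- cells. Its Spearman correlation over cells with Rpl14 was 0.56 in WT and 0.62 in PD-1-/- cells. Rps15a-ps4 had a mean of 40.5 RPKM, against 70.3 RPKM for Rps15a, with correlations of 0.58 and 0.68. Of the 7 pseudogene entries of this kind, Rpl34-ps1 and Rplp2-ps1 were listed at 0 in every kept cell.

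Wells with more than 3500 detected genes were not among the kept cells. The median ribosomal protein share was 5.44% in the 16 such WT wells and 5.26% in the 14 such PD-1-/- wells.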

How the results depend on the processing

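No paired analysis was possible because the numbers shared by the genotypes are well numbers, which do not pair cells, and no result comes from a test. With no replicates, a value was held to have moved when it changed by more than its SD over the 16 plate rows, and a count when it changed by over 1.5 times. Of 399 alternative values, 26 moved, and 0 with a size above that SD changed sign. Each row held 17 to 24 kept cells, so the SD is wide for values over all cells and only large changes count as moved. A value smaller than its SD could not be counted as a change of sign. This holds for the genotype difference in the share, -0.596 points with an SD of 0.835, so the 2 counts say little about it. The cause was not tested where no construction shows it. The share of PD-1-/- cells was below that of WT cells under every alternative run. It was 6.03% in WT and 5.22% in PD-1-/- cells when the 10 most abundant other entries were left out of the total. As a share of recovered reads, it was 2.38% and 2.01%. Those reads are not divided by gene length and cover 10080 entries, 77 of them members. The 2 members at least 1.5-fold lower became 1 with 1500 to 3000 detected genes, without plate rows A and B and without CD3 cells, 3 in rows A–H, and 0 in rows I–P, with at least 100000 recovered reads, with a pseudocount of 10, with means of log2 values and with a mean of at least 100 RPKM. The count higher, 0, became 1 with 1500 to 3000 genes and in rows A–H and in rows I–P, and 2 with no filter. The median log2 ratio of the members ran from -0.27 to -0.18. With members found in at least 20% of cells, the median pairwise correlation was 0.28 in WT and 0.29 in PD-1-/- cells. Within 2000 to under 2500 detected genes, the correlation with the share was 0.44 for translation factors, 0.15 for glycolysis and 0.052 for mitochondrial ribosomal proteins in PD-1-/- cells, and 0.17 for growth and metabolism in WT cells. With recovered reads in place of detected genes it was 0.0402 in WT and 0.0430 in PD-1-/- cells. A TOP tract within 5 bases of the start was in 41.3% of member and 18.3% of all windows. Thinned to 100000 reads, 42 members in WT and 41 in PD-1-/- cells were found in at least 90% of cells, of the 77 with recovered reads.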
